A study of Mus musculus with 12 samples.

Results

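The pyrimidine and deoxynucleotide enzymes are 33 genes whose products make, salvage, interconvert and degrade the nucleotides of uridine, cytidine and thymidine, and supply the deoxynucleotides used to copy DNA. They were chosen by gene name and not by any measured value: every probe named for a member, under its present symbol or an older one, was taken. All 33 members had a probe, out of 27666 gene names on the array. The probe with the highest mean stood for the gene where there were several, as for 13 members. By role, 6 members are linked to proliferation (Rrm1, Rrm2, Tk1, Tyms, Dut and Dtymk), 5 make UMP and CTP, 5 are kinases, 5 are phosphorylases or deaminases, 3 degrade the pyrimidine ring, 3 act on deoxynucleotides outside S phase and 6 are nucleoside diphosphate kinases.

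The study compared mice lacking mENT1, the equilibrative nucleoside transporter encoded by Slc29a1, with wild type mice. Both genotypes were FVB/N. RNA of 4 groups was hybridised to 1-colour Agilent arrays, 3 arrays a group: mENT1 knockout heart (KO heart), wild type heart (WT heart), mENT1 knockout kidney (KO kidney) and wild type kidney (WT kidney). The series' design text names 3 mice per genotype, and arrays carry the letters a, b and c. Age, sex, treatment and how the deletion was made are not given in the sources used here.

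Cells obtain pyrimidine nucleotides either by building the ring from small precursors or by taking up finished nucleosides, which transporters of the mENT1 kind let across the membrane, and phosphorylating them. Ribonucleotide reductase then turns ribonucleotides into deoxynucleotides, and dividing cells raise this step and the making of thymidylate in S phase. Surplus pyrimidines are cut to free bases and broken down by a chain of enzymes best known from liver and kidney.

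Levels below are log2 signals relative to the 75th percentile of the array, so 0 is that percentile, and a change is the difference of 2 group means, given with its standard error from limma (SE). A gene was called at a Benjamini-Hochberg adjusted p under 0.05 over all genes tested. Only probes that exceeded background clearly in every sample of either group entered a test. The targeted gene checked the labels: Slc29a1 stood at 1.38, 0.59 and 1.53 on KO hearts a, b and c, against 3.15, 3.23 and 3.36 on WT hearts, and at -1.43, -1.30 and -1.43 on KO kidneys, against 1.51, 1.27 and 1.62 on WT kidneys. It was lower in knockout arrays of both tissues, by -2.08 ± 0.26 (SE, limma's adjusted p = 0.0349) in heart and -2.85 ± 0.16 (SE, limma's adjusted p = 0.00550) in kidney. The direction held in every alternative run, but the call was lost in 9 of 20 in heart and 3 of 22 in kidney. The columns of the deposited value table follow the array of the other genotype, so every direction below rests on the labels of the scanner files. In heart, KO arrays lay on slide 3 and WT arrays on slide 4, so slide and genotype cannot be told apart there.

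Several arrays stood apart. KO hearts a and b carried thymocyte genes: Dntt, a DNA polymerase of immature lymphocytes, was at 5.65, 6.71 and -3.40 on KO hearts a, b and c, against -4.73, -5.29 and -5.10 on WT hearts. All 12 thymocyte genes listed were above background on KO hearts a and b, while Rag1, Rag2, Ptcra and Themis were not above background on any WT heart. KO heart a also carried lung genes, with a summed signal of 283.1 times the 75th percentile, against 0.095 to 2.84 on WT hearts. Liver genes were higher in KO hearts for 8 of the 11 tested, and clock genes differed between KO kidneys b and c and the other kidneys. Xist, which silences an X chromosome in females, was above background on KO hearts a and b and on KO kidney a, and not on KO kidney b, so a letter need not stand for the same mouse in both tissues. Of the 5 sex genes listed, Xist was the only 1 above background on those arrays. On every other array the 4 others, Ddx3y, Eif2s3y, Kdm5d and Uty, were above background and Xist was not. By these genes all WT arrays were of 1 sex, and each KO group was mixed. Results for the proliferation-linked members are given with and without KO hearts a and b.

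None of the 33 members was called between KO and WT in either tissue. In heart 0 of 31 members tested passed limma's test, and the share over all 17458 genes tested was 0.67%. In kidney 0 of 32 passed, and the share over all 17217 genes was 0.116%. At an unadjusted p under 0.05 there were 7 members in heart, or 22.6% beside 15.7% of all genes, and 6 in kidney, or 18.8% beside 13.1%. The fit of all 12 arrays, in place of the 6 of a tissue, also called 0 members in each. It called 208 of 17458 genes in heart and 78 of 17217 in kidney. Samples of the heart groups did not overlap for 9 of 31 members, beside 22.1% of all genes, and of the kidney groups for 10 of 32, beside 21.5% of all genes. With 3 arrays a group the smallest two-sided p of an exact permutation test is 0.1, so the tests of single members are limma's.

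**Figure D1:**
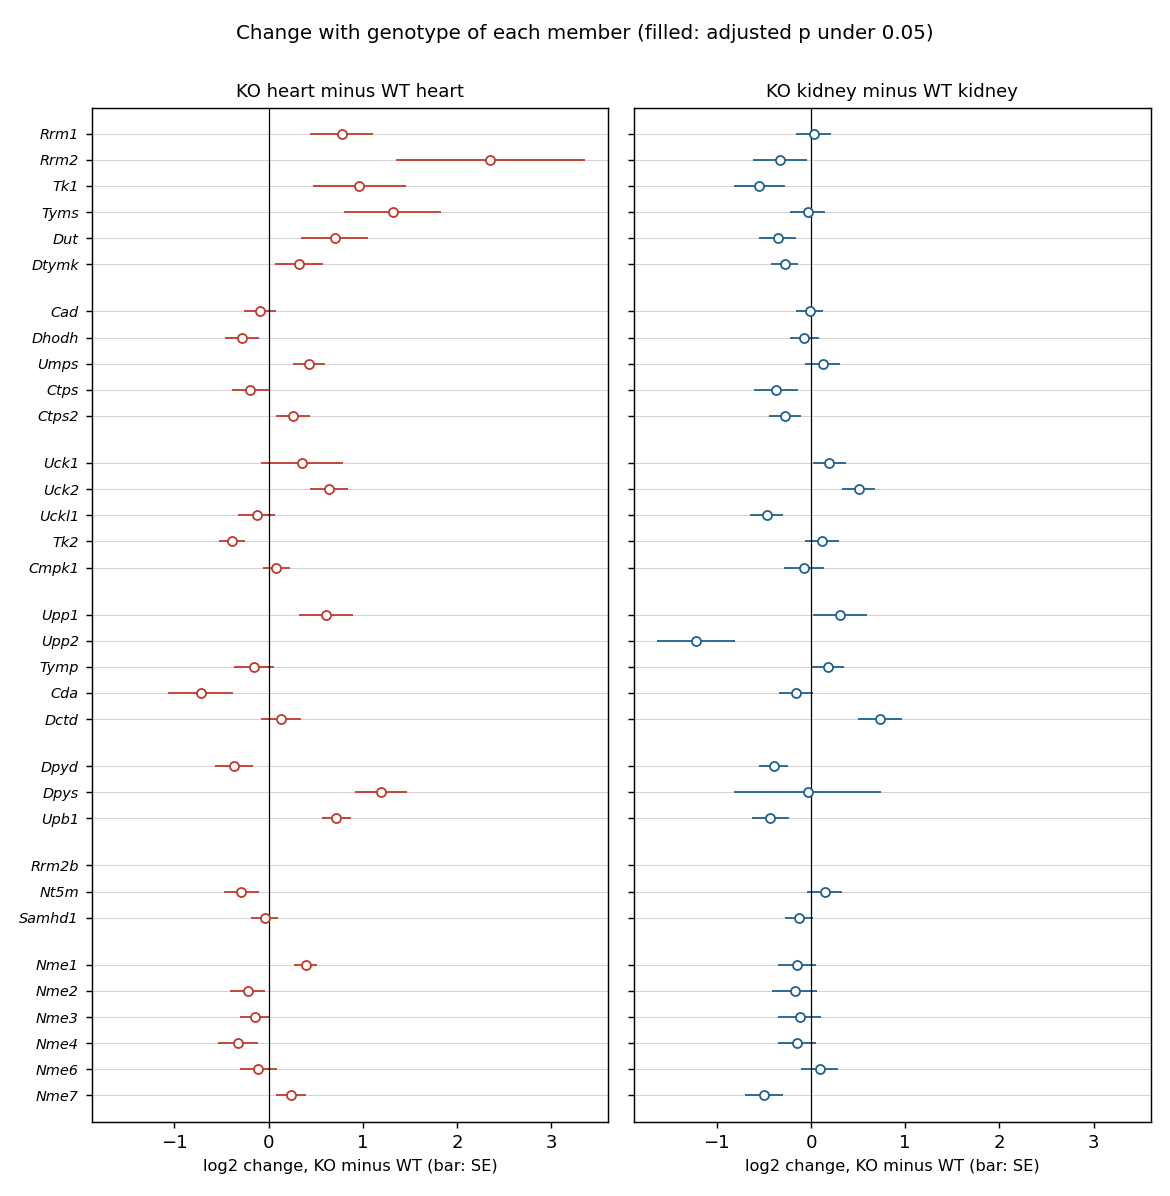
Change of each member between KO and WT on the log2 scale (x axis), heart on the left and kidney on the right, with 1 row per member in role order; points are differences of group means and bars are SE, and a filled point would mark an adjusted p under 0.05. No point is filled; in heart the 6 proliferation-linked members at the top all lie to the right of 0, from 0.32 to 2.35, and in kidney Upp2 lies farthest to the left, at -1.22.

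The proliferation-linked members were high on KO hearts a and b and near the WT level on KO heart c. The median change of the 6 was 0.87 in heart, beside a median of -0.07 over all genes tested, and -0.30 in kidney, beside -0.07. All 6 had a higher mean in KO hearts and 0 were called, with adjusted p between 0.308 and 0.516. In bulk tissue, fewer cells of a type and less RNA per cell cannot be told apart.

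Ribonucleotide reductase is built from a large subunit, Rrm1, and a small subunit, which in S phase is Rrm2. Rrm2 stood at 0.75, 1.91 and -2.30 on KO hearts a, b and c, against -2.21, -2.12 and -2.37 on WT hearts. KO heart c lay among the WT hearts, and the change of 2.35 ± 1.0 (SE) came with an adjusted p of 0.320. Rrm1 stood at 1.98, 2.65 and 1.29 on KO hearts, against 1.24, 1.15 and 1.21 on WT hearts. The groups did not overlap, but KO heart c was above the highest WT heart by little, and the change was 0.78 ± 0.33 (SE, adjusted p = 0.321).

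Thymidylate, the DNA precursor that RNA does not share, is made by thymidylate synthase, Tyms, or from salvaged thymidine by the cytosolic thymidine kinase, Tk1. Tyms stood at 2.06, 3.24 and 1.07 on KO hearts, against 0.91, 0.92 and 0.60 on WT hearts. All KO hearts were above all WT hearts, with a change of 1.31 ± 0.51 (SE, adjusted p = 0.308), and a second probe for Tyms changed by 1.31 too. Tk1 stood at 0.22, 1.36 and -0.72 on KO hearts, against -0.76, -0.49 and -0.79 on WT hearts. Its groups overlapped through KO heart c, and the change was 0.96 ± 0.50 (SE, adjusted p = 0.365).

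Dut hydrolyses dUTP, which keeps uracil out of DNA and yields the substrate of Tyms, and Dtymk phosphorylates thymidylate on the way to dTTP. Dut stood at 3.71, 4.65 and 3.20 on KO hearts, against 3.12, 3.12 and 3.21 on WT hearts. Dtymk stood at 2.25, 2.97 and 2.01 on KO hearts, against 2.05, 2.18 and 2.04 on WT hearts. In each case arrays a and b were above every WT heart and array c was not. The changes were 0.70 ± 0.36 (SE) for Dut and 0.32 ± 0.26 (SE) for Dtymk, with adjusted p of 0.360 and 0.516.

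**Figure D2:**
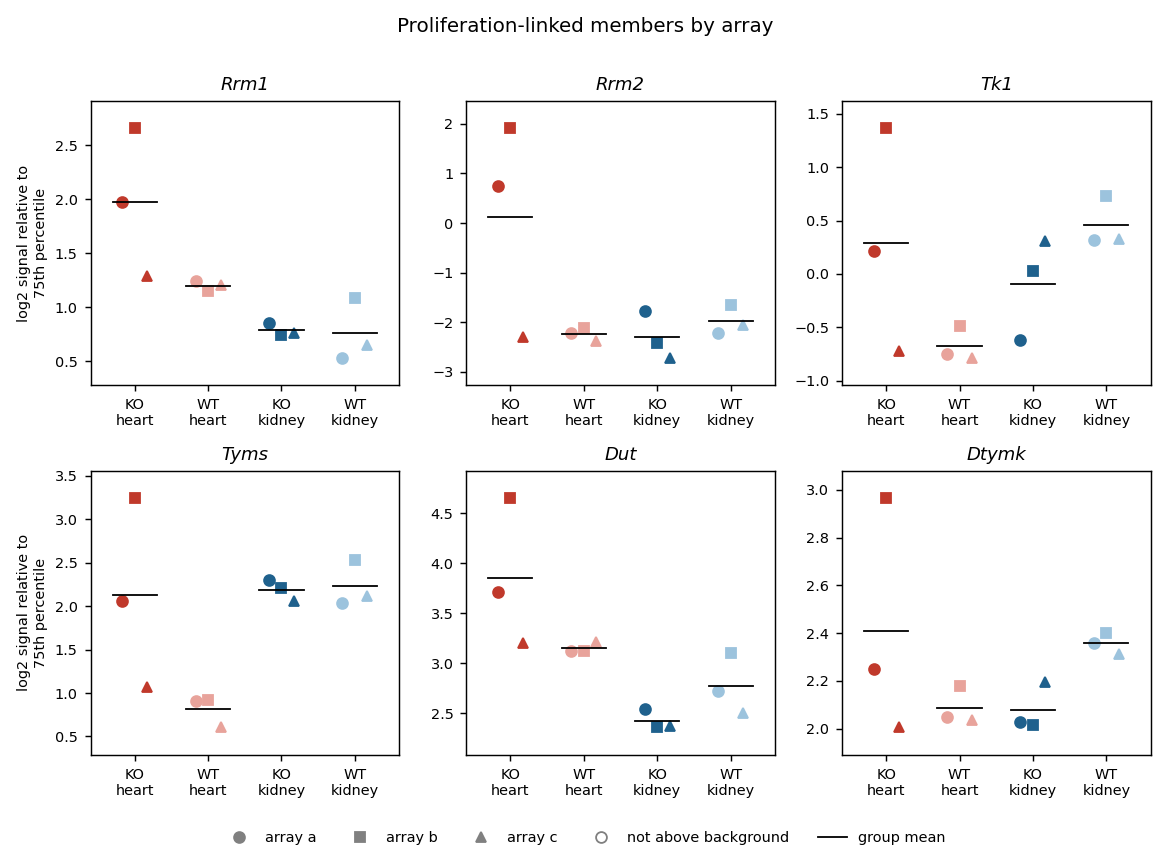
Log2 signal relative to the 75th percentile of the array (y axis) of the 6 proliferation-linked members on each array, with KO heart, WT heart, KO kidney and WT kidney from left to right; circles, squares and triangles are arrays a, b and c, open symbols are not above background, and lines are group means. KO hearts a and b stand above all WT hearts in every panel, while KO heart c lies at or close to the WT hearts, for Rrm2 at -2.30 against -2.37 to -2.12.

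Counted by array, 6 of 6 members on KO heart a and 6 of 6 on KO heart b lay above all 3 WT hearts. On KO heart c, 2 lay above (Rrm1 and Tyms) and 1 below (Dtymk). The median distance from the WT mean was 0.84 on KO heart a, 1.77 on KO heart b and 0.0021 on KO heart c. Other genes of dividing cells were high on the same arrays. The 15 cell division genes listed, among them Mki67, Top2a and Ccnb1, had a median level of 0.69, 1.85 and -0.70 on KO hearts a, b and c, against -0.91, -0.73 and -1.0 on WT hearts. Their summed signal was 24.2 to 107.6 times the 75th percentile on KO hearts, against 20.1 to 23.8 on WT hearts. All 15 had a higher mean in KO hearts and 0 were called. The 12 thymocyte genes had a median level of 1.08, 1.12 and -4.06 on KO hearts a, b and c, against -4.73, -4.90 and -4.99 on WT hearts, with a summed signal of 4.82 to 206.6 in KO hearts, against 2.27 to 6.63 in WT hearts. The part of these cells in the levels of the members was not tested.

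The heart result depended on single arrays. Without KO heart c, limma called 6 members among 2248 genes called of 18210: Rrm1, Rrm2, Tyms, Umps and Upb1 were higher in KO hearts and Cda was lower. The arrays then left, a and b, are those with thymocyte and Xist signal. Without KO hearts a and b the KO heart group is the single array c, whose spread is assumed to be that of the WT hearts, so a call or its absence says little. The median difference of the proliferation-linked members was then 0.0021.

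**Figure D3:**
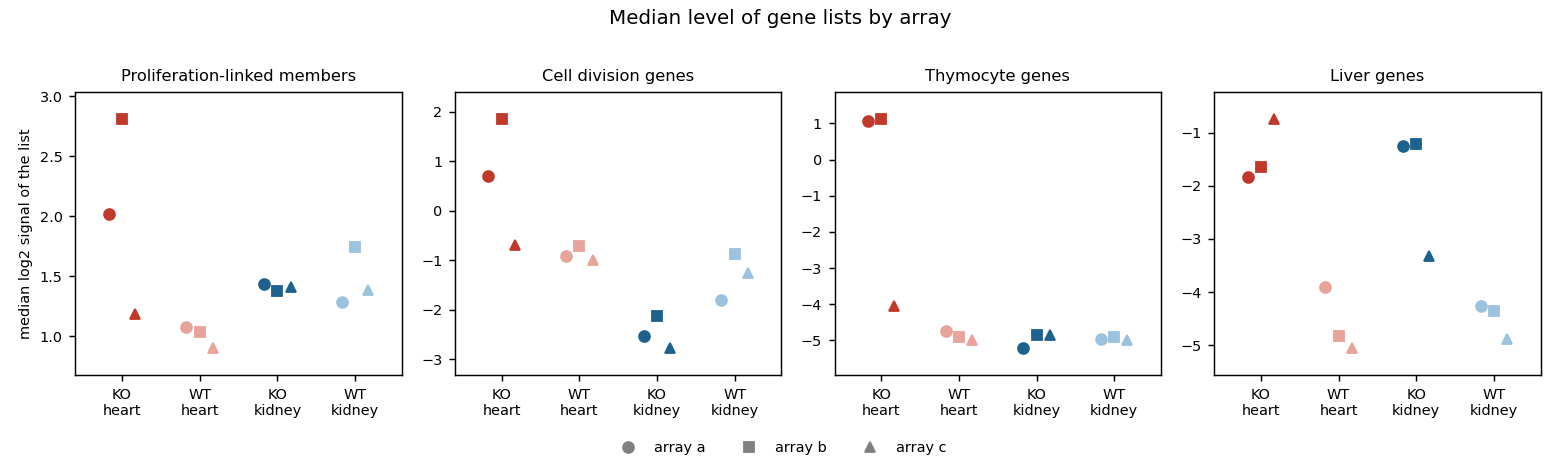
Median log2 signal of 4 gene lists (y axis) on each array, with KO heart, WT heart, KO kidney and WT kidney from left to right and circles, squares and triangles for arrays a, b and c. The proliferation-linked members, the cell division genes and the thymocyte genes are high on KO hearts a and b and not on KO heart c, while the liver genes are higher on all 3 KO hearts, from -1.84 to -0.75, against -5.04 to -3.90 on WT hearts.

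In kidney 5 of the same 6 members had a lower mean in KO arrays, all but Rrm1, and 0 were called. Tk1 stood at -0.62, 0.03 and 0.31 on KO kidneys a, b and c, against 0.31, 0.73 and 0.32 on WT kidneys, and Dtymk at 2.03, 2.02 and 2.20, against 2.36, 2.40 and 2.31. For these 2 members all KO kidneys lay below all WT kidneys, for Tk1 with KO kidney c next to WT kidney a. Rrm2 stood at -1.77, -2.42 and -2.71 on KO kidneys, against -2.22, -1.64 and -2.06 on WT kidneys, so its groups overlapped through KO kidney a. Tyms, Rrm1 and Dut overlapped as well, with levels of 2.05 to 2.30, 0.74 to 0.85 and 2.36 to 2.54 on KO kidneys, against 2.03 to 2.53, 0.53 to 1.09 and 2.50 to 3.1 on WT kidneys. Among the cell division genes all 14 tested had a lower mean in KO kidneys, 13 with no overlap, and 0 were called. Their summed signal was 8.85 to 10.4 on KO kidneys, against 12 to 16.4 on WT kidneys. Other marker lists differed between the kidney groups as well, with 0 genes called in each. Of 7 macrophage genes 6 were lower on all KO kidneys and 1 was higher on all of them. The summed signal of the 7 was 17.2 to 27.6 on KO kidneys, against 28.7 to 40.3 on WT kidneys. Of 5 urothelium genes 4 were higher on all KO kidneys, with sums of 2.91 to 3.82 on KO kidneys, against 1.58 to 1.82 on WT kidneys. Of 10 liver genes tested 6 were higher on all KO kidneys, with sums of 3.51 to 9.14 on KO kidneys, against 2.70 to 3.38 on WT kidneys. Their part in the levels of the members was not tested.

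All 6 members were high on the same 2 arrays, and the promoters of Rrm2, Rrm1, Dtymk and Tyms are shown for that reason. Those of Tk1 and Dut were searched too and are not printed. Each line gives the 150 bases before the gene start of RefSeq, build GRCm38.p6, from 5′ to 3′ on the gene's strand. Capitals mark the core of an E2F site, searched in 4 forms (the first TTCCCGC; the next TTCGCGC; another TTGCCGC; the last TTGGCGC), and the CCAAT box, both on either strand. E2F factors and the CCAAT-binding factor NF-Y are known regulators of S phase genes.
Rrm2 (chr12:24708104-24708253, + strand): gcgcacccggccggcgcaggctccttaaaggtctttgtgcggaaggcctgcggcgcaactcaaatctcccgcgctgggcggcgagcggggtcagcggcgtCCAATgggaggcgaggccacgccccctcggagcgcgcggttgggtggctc
Rrm1 (chr7:102441545-102441694, + strand): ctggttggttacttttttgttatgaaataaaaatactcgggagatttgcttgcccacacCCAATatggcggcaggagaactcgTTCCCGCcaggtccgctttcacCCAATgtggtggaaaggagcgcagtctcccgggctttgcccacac
Dtymk (chr1:93801935-93802084, - strand): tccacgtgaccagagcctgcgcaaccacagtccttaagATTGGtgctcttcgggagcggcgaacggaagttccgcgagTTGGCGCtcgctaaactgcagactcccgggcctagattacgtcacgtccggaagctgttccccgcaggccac
Tyms (chr5:30073626-30073775, - strand): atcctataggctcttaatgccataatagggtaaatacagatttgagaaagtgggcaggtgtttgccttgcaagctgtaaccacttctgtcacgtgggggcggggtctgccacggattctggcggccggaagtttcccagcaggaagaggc
The E2F core was found in 2 of the 6 members' windows, Rrm1 and Dtymk, and in 5.47% of the 32851 promoters of the same length. The CCAAT box was found in 3 of 6, Rrm1, Rrm2 and Dtymk, and in 24.5% of all promoters. The windows of Tyms, Tk1 and Dut held neither word, which says only that these letters are not in them. A match is a description and not a measured site.

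Between tissues the members were called about as often as other genes. In WT arrays 5 of 31 members tested were called higher in heart, beside 31.3% of 17972 genes, and 13 called lower, beside 28.3%, so 18 were called in all, or 58.1%, beside 59.6%. The median difference of the members was -0.26, beside 0.07 over all genes. Of the 6 proliferation-linked members 2 were called, both lower in WT heart: Tyms by -1.42 ± 0.42 (SE) and Tk1 by -1.13 ± 0.44 (SE). The median of the 6 was -0.26. Among 14 cell division genes tested, 13 had a higher mean in WT heart, 3 were called higher, and the median was 0.96. All 3 enzymes of ring breakdown were lower in heart, and so were Upp2 and Cda, which feed that chain with free bases and uridine. Members of the same step went opposite ways: the uridine-cytidine kinase Uck2 was higher in heart and Uck1 lower, and of the synthesis enzymes Cad was higher and Umps lower.

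**Figure D4:**
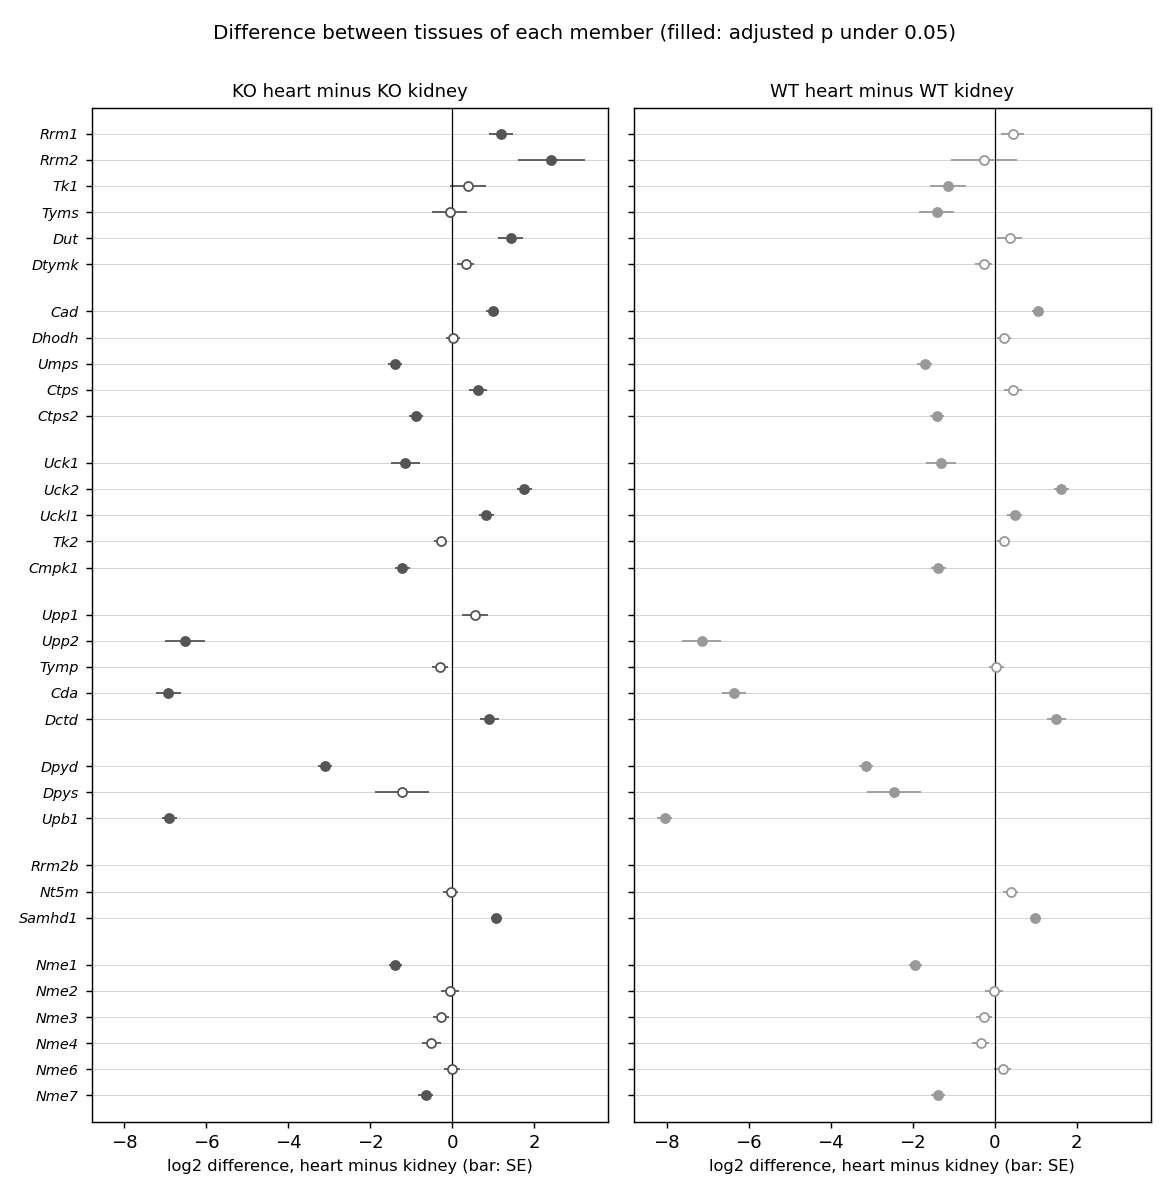
Difference between heart and kidney of each member on the log2 scale (x axis), KO heart minus KO kidney on the left and WT heart minus WT kidney on the right, 1 row per member in role order; points are differences of group means, bars are SE and filled points have an adjusted p under 0.05. Upb1, Cda and Upp2 lie farthest to the left in both panels, at -6.90, -6.92 and -6.52 in KO arrays and -8.05, -6.36 and -7.14 in WT arrays; Upp2 was not above background in heart.

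The same comparison between the KO groups called 9 of 32 members higher in heart, beside 33.2% of all genes, and 10 lower, beside 27.8%, or 19 beside 61%. Its group means share no array with the WT means. Both comparisons were fitted on all 12 arrays with 1 estimate of the spread per gene, so their calls are not independent. The 15 members called in both genotypes had the same direction in each. They are 83.3% of the WT calls and 78.9% of the KO calls. Upp2 and Dctd are among the 15. Upp2 entered both tests through the kidneys alone, and Dctd entered the WT test through the hearts alone. The filter thus favoured the direction they showed there. Dpys, among the WT calls, entered the WT test through the kidneys alone. Tk1, Tyms and Dpys were called in WT alone. Rrm1, Rrm2, Dut and Ctps were called in KO alone, the first 3 of them proliferation-linked members that were high on KO hearts a and b. Without those 2 arrays, when KO heart c alone stands for the group, Rrm1, Rrm2 and Ctps were not called, Dut still was, and Tyms was called too. No slide held WT hearts and WT kidneys together. On slide 3, where KO hearts lay beside WT kidney c, 17 of the 18 WT calls had the same direction and Tyms had the opposite one. WT kidney c is itself among the arrays behind the WT calls, so the shared direction is partly built in. That difference also mixes genotype with tissue.

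Synthesis of UMP starts with Cad, a protein that carries out the first steps of ring building, passes through Dhodh at the inner mitochondrial membrane and ends with Umps. Umps stood at 0.40, 0.45 and 0.48 on WT hearts, against 2.03, 2.35 and 2.08 on WT kidneys. The tissues did not overlap, and Umps was lower in WT heart by -1.71 ± 0.18 (SE, adjusted p = 9.12e-06). Cad was higher, at 1.58 to 1.74 on WT hearts against 0.52 to 0.75 on WT kidneys, a difference of 1.07 ± 0.15 (SE). Dhodh, at 1.24 to 1.39 on WT hearts and 0.92 to 1.19 on WT kidneys, was not called. Ctps and Ctps2 both turn UTP into CTP. Ctps2 stood at 2.24, 2.03 and 1.83 on WT hearts, against 3.37, 3.72 and 3.24 on WT kidneys. It was lower in WT heart by -1.41 ± 0.17 (SE, adjusted p = 3.54e-05), while Ctps, at 3.68 to 4.24 on WT hearts and 3.13 to 3.91 on WT kidneys, was not called.

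Between genotypes the 5 synthesis enzymes changed by -0.28 to 0.43 in heart and by -0.37 to 0.12 in kidney, and none was called. Umps was the largest in heart, at 0.95, 1.11 and 0.58 on KO hearts, against 0.40, 0.45 and 0.48 on WT hearts. All KO hearts were above the WT hearts, a change of 0.43 ± 0.17 (SE, adjusted p = 0.309). Ctps2 stood at 3.19, 3.17 and 3.14 on KO kidneys, below the 3 WT kidneys, with a change of -0.28 ± 0.17 (SE).

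The uridine-cytidine kinases take salvaged uridine and cytidine, the nucleosides that mENT1 carries, to the monophosphates. Uck2 stood at 3.11, 3.36 and 3.11 on KO hearts, against 2.27, 2.48 and 2.91 on WT hearts, and at 1.71, 1.32 and 1.27 on KO kidneys, against 0.88, 0.86 and 1.04 on WT kidneys. KO arrays were above WT arrays without overlap in each tissue, and neither change was called: 0.64 ± 0.20 (SE, adjusted p = 0.253) in heart and 0.51 ± 0.18 (SE, adjusted p = 0.298) in kidney. A second Uck2 probe changed by 0.29 and 0.35. Between tissues Uck2 was higher in WT heart by 1.63 ± 0.19 (SE, adjusted p = 2.26e-05), and by 2.30 with the second probe.

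Uck1 went the other way between tissues, at 1.53 to 2.53 on WT hearts against 2.99 to 3.46 on WT kidneys, and was called lower in heart, by -1.30 ± 0.36 (SE). Cmpk1, which phosphorylates UMP and CMP, was lower too, at 1.44 to 1.70 on WT hearts against 2.65 to 3.21 on WT kidneys. Uckl1, a relative of these kinases, was higher by 0.49 ± 0.19 (SE, adjusted p = 0.0452), a call lost in 10 of 17 alternatives, every left-out array among them. Between genotypes Uckl1 stood at -0.59, -0.17 and -0.16 on KO kidneys, against 0.11, 0.26 and 0.13 on WT kidneys. Its KO kidneys were lower without overlap and the change of -0.47 ± 0.18 (SE) was not called. Tk2, the thymidine kinase of mitochondria, stood at 0.27, 0.47 and 0.36 on KO hearts, against 0.80, 0.88 and 0.60 on WT hearts. That was the only kinase lower in KO hearts without overlap, by -0.39 ± 0.14 (SE, adjusted p = 0.292).

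The uridine phosphorylases split uridine into uracil and a sugar phosphate. Upp2, the form known from liver and kidney, was not above background on any heart array. It stood at -2.57, -1.18 and -1.07 on KO kidneys a, b and c, against -0.10, -0.44 and -0.63 on WT kidneys. All KO kidneys were lower, a change of -1.22 ± 0.41 (SE, adjusted p = 0.282), the largest of any member in kidney. KO kidney a, the lowest, is the kidney array with Xist signal, and KO kidneys b and c are those with shifted clock genes. Dbp, a clock output gene, stood at 6.09, 2.07 and 2.15 on KO kidneys a, b and c, against 6.34, 6.80 and 6.08 on WT kidneys. Their part in the level of Upp2 was not tested. Upp2 was also lower in KO arrays within slide 2, which holds KO kidneys b and c with WT kidneys a and b. Between tissues WT hearts were at least 78.8-fold below WT kidneys in the deposited signal. Upp2 entered that test through the kidneys alone, and its call rests on heart values not above background, so no p is given. With normexp background correction the difference was -2.88 on the log2 scale, a smaller gap than that bound. The bound thus depends on how background is taken off. Upp1 was dim everywhere, at -6.14 to -5.06 on KO hearts and -6.42 to -6.04 on WT hearts, and was not tested between WT tissues.

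**Figure D5:**
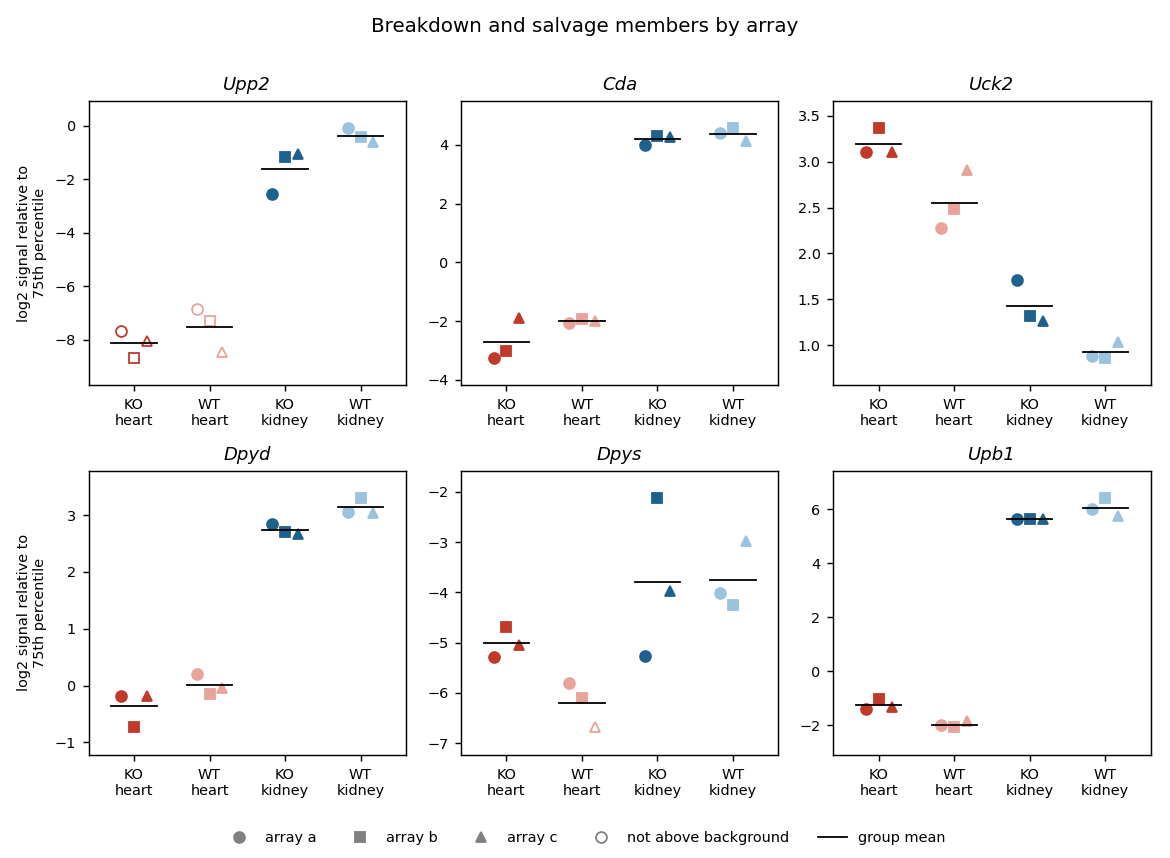
Log2 signal relative to the 75th percentile of the array (y axis) of 6 breakdown and salvage members, with KO heart, WT heart, KO kidney and WT kidney from left to right; circles, squares and triangles are arrays a, b and c, open symbols are not above background, and lines are group means. Kidney means exceed heart means within each genotype for all of them but Uck2; in the Upb1 panel the KO hearts, from -1.39 to -1.05, lie above the WT hearts and the KO kidneys, from 5.62 to 5.65, below the WT kidneys.

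Cda deaminates cytidine to uridine, and Dctd deaminates dCMP to dUMP, the substrate of Tyms. Cda stood at -2.06, -1.94 and -2.0 on WT hearts, against 4.40, 4.56 and 4.11 on WT kidneys, a difference of -6.36 ± 0.30 (SE, adjusted p = 2.09e-08). On KO hearts it stood at -3.25, -3.02 and -1.90. It was thus below the WT hearts on arrays a and b and just above them on c, with a change of -0.72 ± 0.35 (SE, adjusted p = 0.348). The brighter of 2 dim Dctd probes stood at -5.15, -4.82 and -4.80 on WT hearts, against -6.56, -6.07 and -6.68 on WT kidneys, where it was not above background. It entered the test through the hearts alone and was called higher in WT heart, by 1.51 ± 0.23 (SE), on kidney values not above background. The second probe was above background on all 3 WT kidneys and differed by only 0.28, at -5.66, -5.49 and -5.65 on WT hearts, against -5.99, -5.50 and -6.14 on WT kidneys. Between KO and WT kidneys the first probe changed by 0.74 ± 0.24 (SE) and the second by -0.48, with KO kidney a not above background. The first probe entered that test through the KO kidneys alone. The probes disagree, and no fold is given for Dctd. Tymp, which splits thymidine, stood at 0.22 to 0.96 over all hearts and 0.58 to 0.96 over all kidneys, and was called in no comparison.

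Ring breakdown runs in 3 steps, through Dpyd, which reduces uracil and thymine and is the rate-limiting enzyme, Dpys, which opens the ring, and Upb1, which releases the beta-amino acid. Upb1 stood at -2.01, -2.08 and -1.85 on WT hearts, against 6.03, 6.42 and 5.75 on WT kidneys, the largest tissue difference of any member, -8.05 ± 0.18 (SE, adjusted p = 8.69e-11). Dpyd stood at 0.20, -0.14 and -0.05 on WT hearts, against 3.06, 3.30 and 3.05 on WT kidneys, a difference of -3.13 ± 0.18 (SE, adjusted p = 9.47e-08). Dpys stood at -5.81, -6.10 and -6.69 on WT hearts, the last not above background, against -4.02, -4.26 and -2.97 on WT kidneys. The 3 enzymes were thus lower in WT heart without overlap, Dpys by -2.45 ± 0.65 (SE). Dpys entered that test through the kidneys alone, since WT heart c was not above background, so no p is given for it. With normexp background correction the Dpys difference was -0.77 and no longer called.

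Dpys and Upb1 were higher on all 3 KO hearts, KO heart c included. Upb1 stood at -1.39, -1.05 and -1.35 on KO hearts, against the WT hearts above, a change of 0.72 ± 0.15 (SE) with the lowest adjusted p of the members in heart, 0.128. Dpys stood at -5.29, -4.69 and -5.04 on KO hearts, a change of 1.19 ± 0.27 (SE). A second Dpys probe, above background on 6 of 12 arrays, changed by 1.55. Dpys entered that test through the KO hearts alone, since WT heart c was not above background, so no p is given for it. Neither Dpys nor Upb1 was called. Liver genes were high on the same 3 arrays: 8 of the 11 tested were called higher, with Alb at 0.31, 0.46 and 1.34 on KO hearts against -2.13, -2.85 and -3.62 on WT hearts. The liver list had a summed signal of 11.6 to 19.0 on KO hearts, against 11.1 to 13.2 on WT hearts, and Ttr was not above background on any heart. Its part in the levels of Dpys and Upb1 was not tested. Dpyd went the other way, at -0.18, -0.74 and -0.18 on KO hearts, below the 3 WT hearts, by -0.37 ± 0.20 (SE).

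In kidney Upb1 and Dpyd were lower on all KO arrays and not called. Upb1 stood at 5.62, 5.65 and 5.63 on KO kidneys, a change of -0.43 ± 0.20 (SE), and Dpyd at 2.85, 2.70 and 2.67, a change of -0.40 ± 0.15 (SE). Dpys scattered more within KO kidneys, at -5.26, -2.12 and -3.98, than it differed from WT kidneys.

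Outside S phase, deoxynucleotide pools depend on Rrm2b, the p53-inducible small subunit of the reductase, on Nt5m, a mitochondrial deoxynucleotidase, and on Samhd1, which hydrolyses dNTPs. Samhd1 was higher in WT heart, at -0.51 to -0.22, than in WT kidney, at -1.39 to -1.19, by 0.99 ± 0.14 (SE, adjusted p = 8.30e-05). Nt5m was not called in any comparison, with changes of -0.29 ± 0.19 (SE) in heart and 0.14 ± 0.18 (SE) in kidney. Samhd1 changed by -0.04 ± 0.14 (SE) in heart and -0.13 ± 0.15 (SE) in kidney between genotypes. Rrm2b was not tested, since it was above background on 2 of 3 KO hearts, 1 WT heart, no KO kidney and 1 WT kidney.

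The nucleoside diphosphate kinases pass phosphate between nucleoside triphosphates. Nme1 stood at 1.84, 1.93 and 1.84 on WT hearts, against 3.73, 3.97 and 3.70 on WT kidneys, and was lower in WT heart by -1.93 ± 0.16 (SE, adjusted p = 1.93e-06). Nme7 stood at -0.06, -0.15 and -0.44 on WT hearts, against 1.33, 1.35 and 0.83 on WT kidneys, a difference of -1.39 ± 0.18 (SE, adjusted p = 4.96e-05). Nme2, a close relative of Nme1, was saturated on all 12 arrays, so no difference can be read from it. Nme3, Nme4 and Nme6 were not called in any comparison. The probe of Nme4 had no usable spot on KO kidney a, so its KO kidney mean rests on b and c.

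Between genotypes Nme1 stood at 2.18, 2.32 and 2.30 on KO hearts, above the WT hearts, by 0.39 ± 0.12 (SE, adjusted p = 0.253). Nme7 stood at 0.53, 0.79 and 0.69 on KO kidneys, below the WT kidneys, by -0.50 ± 0.20 (SE, adjusted p = 0.354). Nme1 and Nme2 are near-identical in sequence, and how far their probes read each other's RNA was not tested.

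The effect of the deletion was compared between tissues as the heart change minus the kidney change. Of 32 members tested 0 passed, beside 0.638% of 18496 genes, and 8 had an unadjusted p under 0.05, or 25.0% beside 14.6% of all genes, Rrm2, Tk1, Tyms and Dut among them. Upb1 came nearest, with a difference of 1.15 ± 0.25 (SE, adjusted p = 0.0851), and leaving out WT kidney c brought it to 0.0491. Without KO heart c, 6 members were called, among 1492 genes called of 18982. Rrm2, Tk1, Tyms, Dut and Upb1 were higher and Cda lower in heart relative to kidney. The proliferation-linked members differed by 0.60 to 2.68. With KO heart c as the only KO heart, the other groups supply the spread, so a call or its absence says little.

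The 25 other genes of the pathway looked at, such as nucleotidases, folate enzymes and later steps of breakdown, were listed beside the members with earlier results of these data known, and those named here were chosen after their values were seen. Between WT tissues 3 were called higher in heart and 14 lower, of 25 tested, so 68.0% were called, beside 59.6% of all genes. Agxt2, a mitochondrial aminotransferase that takes the beta-amino acid of thymine breakdown, was not above background in WT heart. In the deposited signal it was at least 151.6-fold below WT kidney. Under normexp the difference was -4.06 on the log2 scale, a smaller gap, so this bound too depends on how background is taken off. Abat, which acts on beta-alanine, was lower by -3.39 ± 0.22 (SE), and Aldh6a1, which oxidises the resulting semialdehyde, by -2.22 ± 0.25 (SE). These 3 genes were thus lower in WT heart, as Upb1 was. Nt5c3b, a nucleotidase, was higher in WT heart by 2.27 ± 0.36 (SE).

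Between genotypes 0 of 24 of these genes tested in heart and 0 of 25 in kidney were called, with 6 and 0 at an unadjusted p under 0.05. Dck, the deoxycytidine kinase known for high levels in lymphoid tissue, stood at 1.15, 2.12 and -1.04 on KO hearts a, b and c, against -1.08, -1.14 and -1.37 on WT hearts. It was thus high on KO hearts a and b alone, as Rrm2 was. Shmt2, a mitochondrial enzyme of 1-carbon metabolism, stood at -4.33 on KO kidney a and at 4.29 and 4.52 on b and c, against 4.46, 4.40 and 4.29 on WT kidneys. That array alone sets its kidney change.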

How the data were processed

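RNA of 12 samples was read on 1-colour Agilent arrays, 3 arrays in each of 4 groups. Per the file headers, the deposited processed signal is a background-subtracted intensity from Feature Extraction 9.5.3.1, while the submitters' processing notes name 9.1. The deposited value table holds log2 values centred near 0; each of its 12 columns follows the array of the other genotype with the same letter (lowest r 0.9998). It served as an alternative, under the label of the array each column follows. How the authors centred it is not given in the sources used here.

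From the processed signal, log2 values minus the 75th percentile of each array were computed. Outlier and control spots were left out and spots of a probe averaged. The brightest probe over all 12 arrays stood for a gene. Comparisons used limma 3.58.1 in R 4.3.3: the 6 arrays of a tissue for KO against WT, and all 12 arrays for the tissue comparisons and the difference of effects. Where a group was not above background, a fold is given as a bound, from the mean of the bright group against that of the dim group. On each dim array the larger of the gene's own signal and the lowest signal measured above background was taken. Nothing in the labels says how the samples of a group were taken, so p-values measure the spread between these samples, which may in part be technical, and their number limits the precision. On simulated data with 100 genes changed by 1 on the log2 scale, 15% were called in the heart comparison and 20% in the kidney comparison. With 100 changed by 2, 67% and 76% were called. The simulated noise was normal, with each gene's spread pooled over all 4 groups, KO hearts a and b included. Only genes above background on all 12 arrays were changed. These shares therefore do not reflect the spread of heart or kidney alone.

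Deviations from the group means correlated at 0.185 to 0.357 between same-lettered KO and WT hearts, and at -0.136 to 0.129 between same-lettered kidneys. Arrays of different letters were not compared, so these values do not show that the letters pair the samples. The labels state no pairing, and the main tests used none.

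The members, roles and lists were chosen with earlier results of these data known. Values on every array are given for proliferation-linked members, for members without overlap that changed by at least 1 on the log2 scale, and for the 12 largest WT tissue differences called; other values per array were added after they were seen. Probe annotation is of build mm7 per the file headers. Promoters are RefSeq's, GRCm38.p6. Alternatives covered background correction, scaling, probe filter and choice, outlier spots, arrays in the fit, slide, letter, Xist, the deposited table and each array left out.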

Additional observations from a re-analysis of the deposited data

Results flagged for a closer look

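Upb1 was higher on every KO heart than on the WT hearts and lower on every KO kidney than on the WT kidneys. The heart change exceeded the kidney change by 1.15 ± 0.25 (SE) on the log2 scale, with limma's adjusted p of 0.0851 over all genes, so the difference did not pass the threshold. Liver genes were higher on the same KO hearts, and their part in the level of Upb1 was not tested.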

How the results depend on the processing

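In heart 18 of 19 distinct alternative fits called 0 members, and in kidney 21 of 21; leaving out the arrays with Xist signal is the same fit as leaving out KO hearts a and b in heart and KO kidney a in kidney. Leaving out arrays in turn gave 0 to 6 members called in heart and 0 to 6 for the difference between tissues, with 6 in each case without KO heart c and 1, Upb1, for the difference without WT kidney c. The letter as a replicate block gave 0 members in heart, 0 in kidney, 18 between WT tissues, 19 between KO tissues and 0 for the difference, and so changed no count of members; over all genes it called 80 in heart, 2 in kidney and 57 for the difference. Over all genes the alternatives called 17 to 2248 in heart, 0 to 273 in kidney and 0 to 1492 for the difference. WT tissue calls of members ranged over 14 to 19 and KO tissue calls over 13 to 20. Slide as a random block gave 16 between WT tissues and 18 between KO tissues; in heart no slide holds both genotypes. For the difference between KO kidney and WT kidney, the median of the members not linked to proliferation was -0.23 with normexp background correction and -0.0025 with quantile normalization, against -0.098. In heart that median was -0.26 with arrays scaled by their median, where the median of all genes was -0.23, 0.095 with sex as a covariate, 0.097 without arrays with Xist signal and 0.097 without KO hearts a and b, an alternative chosen after seeing the data, against -0.096. The values of 0.095 and 0.097 each rest on KO heart c alone against the WT hearts, so they do not add to each other. The direction of the heart median is not settled, and the cause was not tested. The median of proliferation-linked members in heart ran from 0.0021 to 1.29. Between WT tissues, Dpys (-0.77) and Dctd (0.20) were not called with normexp, nor Dctd (0.89) with the mean of its probes, nor Tyms (-1.26) without WT kidney b. Tk1 and Uckl1 each lost their call in 10 of 17 alternatives, among them normexp, no filter on dim probes, slide as a random block and every left-out array, and Upp2 differed by -2.88 with normexp. Signal near background limits Upp1, Dctd, Dpys and Rrm2b, and saturation limits Nme2.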
